A study of Mus musculus with 4 samples.

Results

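The cells described here were excitatory neurons of the adult mouse prefrontal cortex (PFC) in which the transcripts of Bdnf, Nptx2 and Egr3 were all detected. In the adult library, 14087 cell barcodes had at least 1000 UMIs (unique molecular identifiers, each marking 1 captured transcript) and 1000 genes, with at most 15% of UMIs from mitochondrial genes. Of these, 6956 had at least 1 UMI of Neurod2 and Neurod6 per 10000 UMIs and fewer than 1 UMI of Gad1 and Gad2 per 10000, and they are called excitatory neurons below. At least 1 UMI of each of the 3 genes was found in 1600 of them (23.0%), called triple-positive neurons, and 0 UMIs of all 3 genes in 1436, called triple-zero neurons. The triple-positive neurons were thus chosen by their measured UMIs of Bdnf, Nptx2 and Egr3, and the levels of these genes below are a description only.

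Single-cell RNA of the PFC of C57BL/6J mice was measured in adults (P84) and at the postnatal days P1, P4 and P10, with no genetic or drug treatment as a group. There was 1 library for each age, made by the methods from 2 female mice that cannot be told apart here, so each age was 1 sample, no test was possible and every interval below is a 95% interval that covers counting error only. The methods state that mice were anesthetized on ice and that slices were cut in an ice-cold solution. The slices were then moved to a solution with actinomycin D, a blocker of transcription, and cells were freed with proteases at warm temperature. The part of this handling in the levels of activity genes was not tested. Across the 4 libraries, 59918 cells passed the filter, with medians of 11065 to 25800 UMIs per cell, and pairs of libraries shared 12 to 368 barcode sequences, which were kept.

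When a neuron fires, calcium entering through synaptic receptors and channels activates kinases that act on transcription factors already present, such as CREB and SRF. These switch on a rapid primary set of genes, mostly transcription factors such as Fos, Npas4 and the Egr family, followed by a delayed set that encodes secreted, synaptic and signaling proteins. Bdnf encodes brain-derived neurotrophic factor, a secreted ligand that strengthens synapses. Nptx2 encodes a secreted pentraxin that gathers AMPA-type glutamate receptors at synapses. Egr3 encodes a zinc finger transcription factor of the Egr family. In GENCODE M21 on GRCm38, Bdnf lies at chr2:109674700-109727007, Nptx2 at chr5:144545902-144557478 and Egr3 at chr14:70077203-70082614, all on the plus strand, and Bdnf overlaps the antisense gene Gm45346. Whether the counting used strand is not given in the sources used here.

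The promoters of 4 rapid primary genes that were higher in triple-positive neurons, and of Bdnf, are shown because CREB binds a sequence, the cAMP response element (CRE), that is found upstream of many activity genes. The core of the element, TGACG, or its reverse complement CGTCA, is in capitals, and each stretch holds the 250 bases before the annotated transcription start, 5′ to 3′ on the strand of the gene (RefSeq, GRCm38.p6). The position is chr15:101266596-101266845 (plus) for Nr4a1, chr12:85473640-85473889 (plus) for Fos, chr10:67537619-67537868 (plus) for Egr2, chr19:4989972-4990221 (minus) for Npas4 and chr2:109692186-109692435 (plus) for Bdnf.
Nr4a1: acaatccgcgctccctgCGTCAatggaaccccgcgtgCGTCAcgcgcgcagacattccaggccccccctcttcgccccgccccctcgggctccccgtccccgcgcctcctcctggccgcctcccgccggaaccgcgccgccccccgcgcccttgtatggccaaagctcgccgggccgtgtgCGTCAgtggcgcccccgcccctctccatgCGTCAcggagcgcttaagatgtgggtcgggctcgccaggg
Fos: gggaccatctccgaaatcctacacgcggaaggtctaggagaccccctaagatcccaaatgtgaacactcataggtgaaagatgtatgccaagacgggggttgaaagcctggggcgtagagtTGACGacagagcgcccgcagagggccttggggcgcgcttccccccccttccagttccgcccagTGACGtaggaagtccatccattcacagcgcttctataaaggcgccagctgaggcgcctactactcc
Egr2: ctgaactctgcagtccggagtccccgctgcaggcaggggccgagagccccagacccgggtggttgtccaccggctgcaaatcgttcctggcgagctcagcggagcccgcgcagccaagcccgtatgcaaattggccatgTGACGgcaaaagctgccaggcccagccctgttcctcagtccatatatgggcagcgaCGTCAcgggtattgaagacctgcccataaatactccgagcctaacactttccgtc
Npas4: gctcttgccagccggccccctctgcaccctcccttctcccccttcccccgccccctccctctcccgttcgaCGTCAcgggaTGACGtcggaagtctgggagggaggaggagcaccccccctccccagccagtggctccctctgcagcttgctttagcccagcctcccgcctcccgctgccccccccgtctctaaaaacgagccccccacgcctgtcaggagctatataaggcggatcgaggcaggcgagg
Bdnf: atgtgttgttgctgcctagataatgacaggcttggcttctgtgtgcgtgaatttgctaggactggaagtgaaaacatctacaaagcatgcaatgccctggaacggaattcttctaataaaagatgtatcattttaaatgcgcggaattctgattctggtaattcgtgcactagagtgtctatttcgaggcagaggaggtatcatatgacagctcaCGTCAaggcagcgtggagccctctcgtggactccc
Nr4a1 held 4 copies of the core, Fos, Egr2 and Npas4 held 2 each, and the Bdnf promoter with the most copies among its 7 in the table held 1. The stretches shown were picked among those with copies. Of other genes that were higher, the same 250 bases held 1 copy for Junb and 0 for Ptgs2, Inhba and Fosl2. Egr2 also held 1 CArG box, the sequence bound by SRF. Over windows of 250 bases before and 50 after the start, the core was found on either strand in 20.8% of 32851 promoters. It was found in 15 of 25 promoters of the rapid primary list (60%), of which 19 of 24 genes had an entry, and in 12 of 25 promoters of the delayed list (48%), of which 20 of 30 genes had one. The full element TGACGTCA, which contains the core on both strands, was in 3 promoters of each list (12%) and in 1.79% of all. CArG boxes were in 5 rapid promoters (20%), in 0 delayed promoters and in 1.63% of all. These are counts of promoters and not of genes, since Egr2 alone had 5 promoters. The EGR site GCGTGGGCG, on either strand, was in 1 promoter of the rapid list (4%), in 0 of the delayed list and in 0.612% of all. These matches of letters are a description and show no binding. Of the 3 genes that chose the cells, Bdnf had an entry. Nptx2 and Egr3 are named only.

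Triple-positive neurons held few to many copies of each transcript. Bdnf had a lowest value of 1 UMI per cell, a median of 4 and a highest of 76, Nptx2 had 1, 3 and 130, and Egr3 had 1, 8 and 69. Exactly 1 UMI was found for Bdnf in 311 of the 1600 neurons, for Nptx2 in 384 and for Egr3 in 94, so Nptx2 was the transcript nearest to the limit of detection. Together, the triple-positive neurons held 71.4% of the Bdnf UMIs, 81.4% of the Nptx2 UMIs and 51.8% of the Egr3 UMIs of all adult excitatory neurons. Egr3 was therefore spread more widely than the other 2 transcripts. Just outside the rule, 1968 neurons had 2 of the 3 genes, and of these 1180 lacked Nptx2, 726 lacked Bdnf and 62 lacked Egr3. Just inside it, 27 neurons had exactly 1 UMI of each gene. Levels are given as CPM, the UMIs of a gene scaled to a fixed total of UMIs outside mitochondrial and ribosomal protein genes. Summed over the rapid primary list, the level was 971 CPM (interval 891 to 1057) in these 27 neurons, 1504 in those with 2 of the 3 genes and 2340 in the 992 triple-positive neurons with at least 2 UMIs of each. These groups had median depths of 20974, 21474 and 26017 UMIs.

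Detection of all 3 transcripts moved with the depth of the cell. Triple-positive neurons had a median of 24734 UMIs (3136 to 66602), and triple-zero neurons had 6500. The share of triple-positive cells was 1.41% (0.704 to 2.50) among excitatory neurons under 5000 UMIs, 11.6% between 10000 and 15000, and 48.1% (44.9 to 51.3) at 30000 or more. The triple-zero share went from 71.5% in the shallowest cells to 0.418% in the deepest. For this reason the gene comparisons below were made between cells matched on UMIs, and values from cells of unequal depth are given with their medians or with the matched value beside them.

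**Figure D1:**
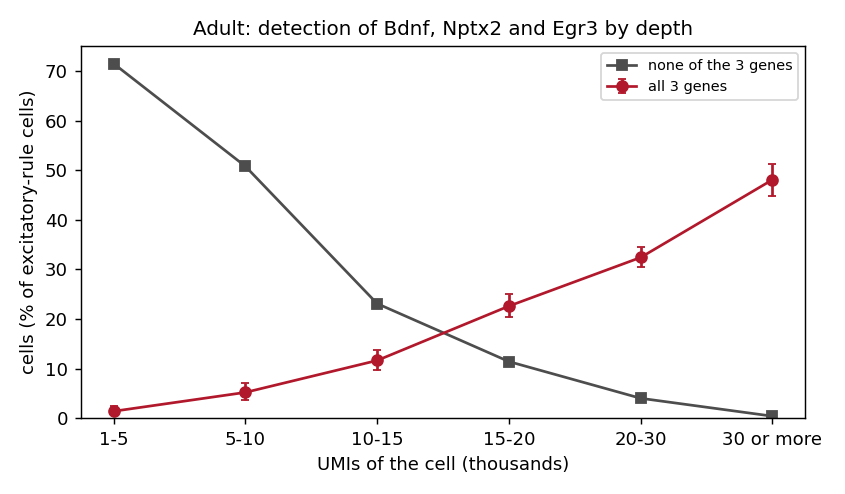
Share of adult excitatory neurons with all 3 of Bdnf, Nptx2 and Egr3 (red circles, bars are exact binomial 95% intervals) and with none of them (grey squares, no interval drawn) against the UMIs of the cell in 6 classes. The triple-positive share climbs from 1.41% to 48.1% with depth, and the triple-zero share falls from 71.5% to 0.418%. Cell classes, which differ in depth, are pooled.

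Cells were also thinned to 5000 UMIs, and 782 of the 6956 excitatory neurons were shallower and left out. At this depth, Bdnf was found in 25.9% of neurons, Nptx2 in 22.2%, Egr3 in 52.9% and all 3 in 8.47% (7.79 to 9.19). The next shares are a description of the UMIs that chose the cells, pooled over clusters with unequal shares. Nptx2 was found in 40.7% of neurons with Bdnf and in 15.7% of neurons without it. Egr3 was found in 69.0% of neurons with Bdnf and in 47.3% without it, and Bdnf in 33.8% of neurons with Egr3 and in 17.1% without it. Egr3 was found in 72.2% of neurons with Nptx2 and in 47.4% without it. Free RNA and doublets can give such UMIs in any cell, so the same genes were also read in other cell types. Their own expression there was not separated from these sources. At 5000 UMIs, Bdnf was found in 2.74% of inhibitory neurons (at least 5 UMIs of Gad1 and Gad2 per 10000), Nptx2 in 8.53% and Egr3 in 6.28%. In cells with at least 10 UMIs of the microglial genes C1qa, C1qb and C1qc per 10000, the shares were 9.09%, 4.36% and 15.6%, all below those of excitatory neurons. All 3 genes were found in 0 of 1243 thinned inhibitory neurons, with an exact interval of up to 0.296%. Without thinning, all 3 were found in 0.784% of 1531 inhibitory neurons, at a median of 14777 UMIs, and in 0.104% of 962 microglial cells, at 4286 UMIs, against 23.0% of excitatory neurons at 18266 UMIs.

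The triple-positive cells carried markers of excitatory neurons. Slc17a7, the vesicular glutamate transporter of cortical excitatory neurons, was found in 100% of them and Camk2a, a synaptic kinase, in 100%. The transcription factor Tbr1 was found in 95.9%. Of the genes of inhibitory neurons, the transporter Slc32a1 was found in 6.13% of triple-positive and 4.32% of the shallower triple-zero neurons. The enzymes of GABA synthesis were found in 24.4% and 6.48% (Gad1) and in 11.3% and 2.09% (Gad2), below the limit that the rule set per 10000 UMIs. In the pairs matched on UMIs, described below, 5 inhibitory markers summed to 20.3 CPM (127 UMIs) in triple-positive and 23.8 (150 UMIs) in triple-zero neurons. Their log2 ratio was −0.23 (−0.58 to 0.12). The 5 markers include Gad1 and Gad2, which the rule limited in both groups, so this ratio is a description and no check of identity. Clusters led by glial or vascular genes, described below, held 138 of the 1600 triple-positive cells. In the shallower triple-zero neurons, Slc17a7 was found in 78.8%, and 59.6% of them carried at least 5 UMIs per 10000 of glial, vascular and blood markers, against 13.5% of triple-positive neurons. The rule thus admitted triple-zero cells with many UMIs of glial genes. In the pairs matched on UMIs that are described below, Slc17a7 was found in 100% of triple-positive and 98.1% of triple-zero neurons, and the share with such markers was 15.9% and 29.4%. In pairs matched on UMIs within clusters it was 24.6% and 27.7%. Scrublet, which marks likely doublets, marked 8.88% of triple-positive and 6.75% of triple-zero neurons over all depths, 7.11% and 11.4% in the pairs matched on UMIs, and 14.8% and 11.3% in the pairs within clusters, so the order of the groups depended on the matching.

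Triple-positive cells were unevenly spread over 12 clusters of the excitatory neurons, built without the activity genes of the lists. A cluster is called "-like" where at least 3 of the listed markers of a class were detected above their level in the other clusters and at least 1 of them was among its 10 leading genes. In the L5 PT-like cluster and the microglia-like cluster 7, exactly 1 marker was among these 10. A cluster led by Oprk1, Rxfp1 and Penk (cluster 1, unnamed) held 44.6% (41.2 to 48.0) triple-positive cells among its 830 cells. A cluster led by Tnnc1, Scn7a and Slc24a3 (cluster 0, unnamed) held 35.3% (33.0 to 37.7) among 1648, and the L2/3 IT-like cluster (cluster 4, with all 5 markers, led by Calb1, Wfs1 and Cux2) held 31.7% (28.7 to 34.7) among 954. IT stands for intratelencephalic neurons, which project within the cortex and striatum. The L6 CT-like cluster (corticothalamic, cluster 6, led by Igkc and other immunoglobulin transcripts and by Syt6, Rprm and Foxp2) held 14.6%, the L5 PT-like cluster (pyramidal tract, cluster 2) 7.90%, and the L5 NP-like cluster (near-projecting, cluster 3) 2.14% (1.07 to 3.8). Clusters 0, 1 and 4 together held most triple-positive neurons, with 36.4%, 23.1% and 18.9% of them. The L5 NP-like cluster alone held 21.7% of triple-zero neurons and 0.688% of triple-positive neurons.

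The same clusters led at equal depth. With each cell thinned to 5000 UMIs, the share was 17.8% (15.3 to 20.6) in cluster 1, 13.9% (11.7 to 16.2) in the L2/3 IT-like cluster, 10.9% (9.37 to 12.5) in cluster 0, 2.78% (1.86 to 4.0) in the L6 CT-like cluster, 2.06% (1.07 to 3.57) in the L5 PT-like cluster and 0.207% (0.00525 to 1.15) in the L5 NP-like cluster. Neighbors in this order had overlapping intervals within the first 3 and within the last 3 of these clusters, and the intervals of the 3 clusters with the highest shares lay above those of these 3 others. The median depth was 25452 UMIs in the L5 PT-like cluster and 21758 in cluster 1. Of the clusters, 6 were led by glial or vascular genes, and they held 138 triple-positive and 705 triple-zero cells. In 1 of these, the microglia-like cluster 7, Scrublet marked 96.7% of the 120 cells, and 26 (21.7%) were triple-positive. The other microglia-like cluster held 0 triple-positive cells of 188, with an exact interval of up to 1.94%. With thinning, the share was 9.01% (4.41 to 15.9) in cluster 7 and 6.39% (3.54 to 10.5) in the astrocyte-like cluster, above that of the L6 CT-like cluster. It was 0% to 3.70% in the other clusters led by glial or vascular genes.

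**Figure D2:**
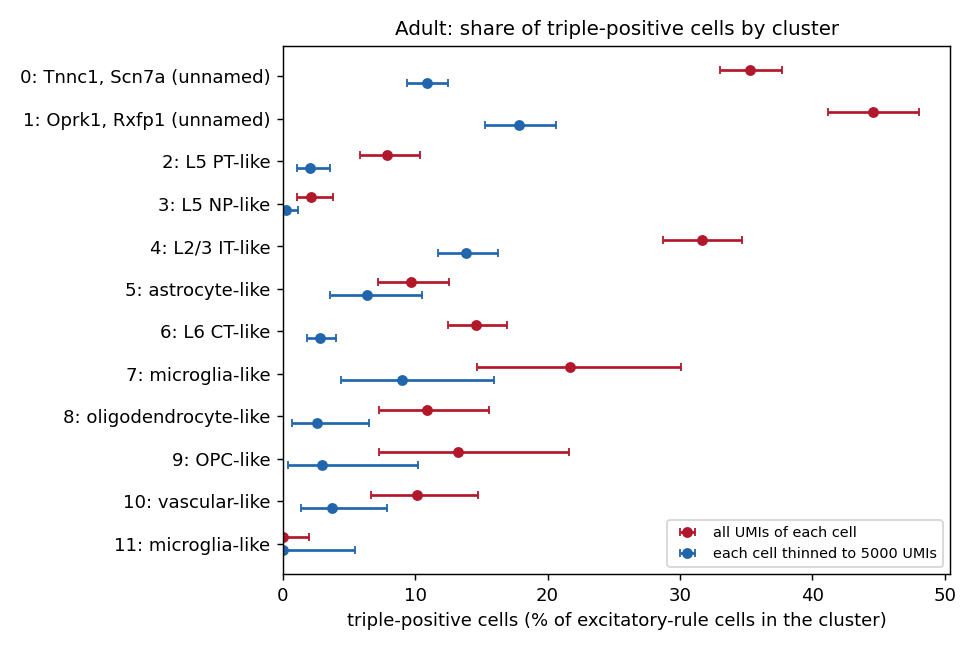
Percentage of triple-positive cells in each of the 12 clusters of adult excitatory neurons, with all UMIs of each cell (red) and with each cell thinned to 5000 UMIs (blue), bars being exact binomial 95% intervals. Clusters 0, 1 and 4 have the highest shares of the neuron-led clusters on both scales, 31.7% to 44.6% and 10.9% to 17.8%, while the L5 NP-like cluster is at 2.14% and 0.207%.

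To compare the remaining transcriptome, triple-positive neurons were paired with the nearest unused triple-zero neuron in UMIs, within 10%, which gave 422 pairs with median depths of 15566 and 15464 UMIs. Only 26.4% of the 1600 triple-positive neurons found a partner, and these were shallower than the whole group (median 24734 UMIs), so most of the deeper cells did not enter the comparisons of pairs. Of 9516 genes with at least 100 UMIs over both groups, 325 (3.42%) were at least 2-fold higher in triple-positive neurons and 492 (5.17%) at least 2-fold lower, and the median log2 ratio (CPM of triple-positive over triple-zero neurons) of all these genes was −0.11. Gene values in parentheses below are such log2 ratios with their intervals. The pairs differed in class: 149 of the 422 triple-zero cells and 0 of the triple-positive cells were from the L5 NP-like cluster. The lowest genes held markers of that class, Slc17a8 (−6.77, 4 UMIs against 440) and Tshz2 (−6.13), while Cux2, a transcription factor of the upper layers, was among the highest at 2.96. Therefore the pairs were also drawn within the same cluster, which left 256 pairs (16% of triple-positive neurons) at medians of 16274 and 16225 UMIs. The L6 CT-like cluster gave 78 of these pairs, cluster 0 gave 52, cluster 1 gave 38 and the L2/3 IT-like cluster gave 28. The L6 CT-like cluster held 9.4% of all triple-positive neurons, so values pooled within clusters weigh it above its share. Of 8315 genes tested, 85 (1.02%) were then at least 2-fold higher and 120 (1.44%) at least 2-fold lower, with a median of −0.07. Of the 325 genes, 264 were tested within clusters and 74 were still at least 2-fold higher. The median of the L2/3 IT markers went from 1.30 to −0.03 and that of the L6 CT markers from −1.74 to −0.40. That of the rapid primary list went from 1.76, over 17 tested genes, to 1.57, over 13. The markers of other classes still differed within clusters. Those of L5 NP neurons had a median of −1.32 and summed to 143 CPM in triple-positive and 335 in triple-zero neurons, and those of L6b neurons had a median of −3.27 by depth and −3.37 within clusters. The values below are within clusters unless stated otherwise, with values of the pairs matched on UMIs alone given as "by depth".

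**Figure D3:**
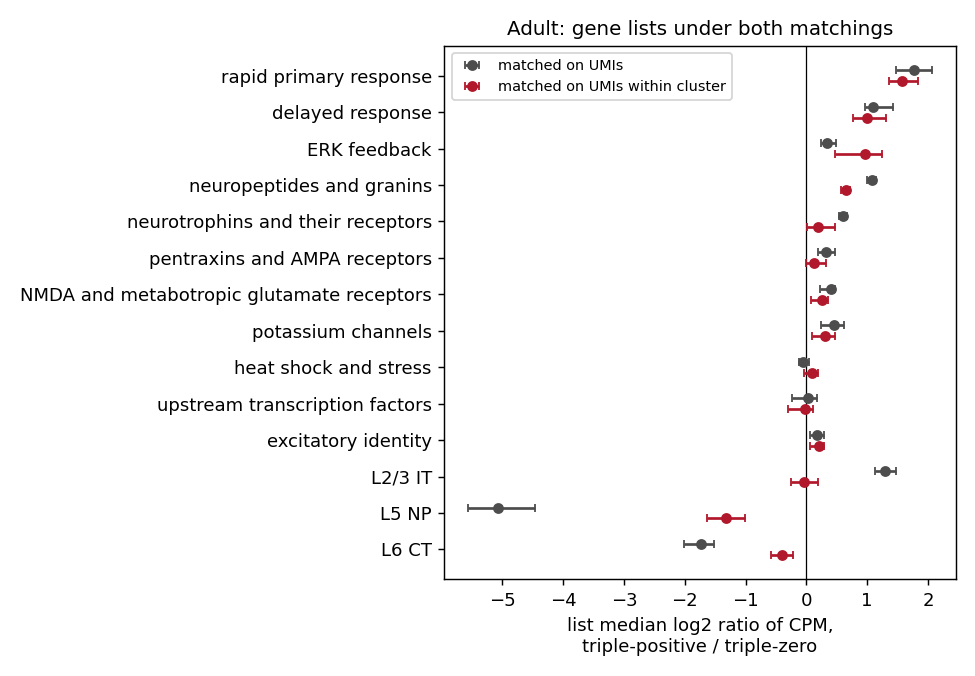
Median log2 ratio of CPM (triple-positive over triple-zero neurons) over the tested genes of 14 gene lists, with pairs matched on UMIs (grey) and on UMIs within the same cluster (red), bars being the medians of the lower and of the upper counting bounds of the genes. The rapid primary list stays at 1.76 and 1.57 and the delayed list at 1.10 and 1.0, while the L2/3 IT markers move from 1.30 to −0.03.

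The rapid primary genes were higher in triple-positive neurons as a group. Of the 24 genes of the list, 13 had 100 UMIs within clusters, and 9 of these were at least 2-fold higher and 0 at least 2-fold lower, against 1.02% and 1.44% of all genes. Nr4a1, an orphan nuclear receptor, was at 224 CPM against 29.0, a log2 ratio of 2.95 (2.66 to 3.24). It ranged from 0 to 26 UMIs per triple-positive neuron with a median of 2, and from 0 to 5 with a median of 0 in triple-zero neurons, so the groups overlapped. Fos, the AP-1 transcription factor, was at 109 CPM against 16.0 (2.76, 2.38 to 3.17), with a UMI in 55.5% against 11.7% of cells. Egr1, which binds the same site as Egr3, was at 991 CPM against 210 (2.24, 2.13 to 2.35) and was higher in the triple-positive cell in 214 of 256 pairs, equal in 15 and lower in 27. Egr4 (2.16), Fosb (2.22) and Arc (2.12), whose protein removes AMPA receptors from synapses, were in the same range.

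Npas4, a transcription factor that is switched on by calcium, was at 76 UMIs against 13 within clusters (2.55, 1.69 to 3.52) and 144 against 12 by depth (3.60). Egr2 was at 79 UMIs against 2 within clusters (5.31, 3.41 to 8.38), a ratio that rests on 2 UMIs, and by depth it was the highest gene at 5.10 (3.51 to 7.40), with 3 UMIs in triple-zero neurons. Within clusters, these 2 genes were under the 100 UMIs needed for the counts of the list. Ier5 (1.57), Junb (1.49) and Dusp1 (1.44), a phosphatase of MAP kinases, were higher by less. Klf6 (0.19, −0.01 to 0.39) had an interval that held 0. Jun, the partner of Fos in AP-1, was lower in triple-positive neurons at −0.41 (−0.60 to −0.21), and its depth-matched interval held 0 (−0.27 to 0.06). Summed over the whole list, the UMIs per cell were 1 to 161 with a median of 27 in triple-positive neurons and 0 to 81 with a median of 9 in triple-zero neurons. The triple-positive cell was higher in 220 of the 256 pairs (85.9%), equal in 4 and lower in 32, so the distributions overlapped.

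Of the 30 delayed genes, 23 were tested within clusters, and 11 were at least 2-fold higher and 0 at least 2-fold lower, against 1.02% and 1.44% of all genes, with a median of 1.0. Inhba, a subunit of the secreted ligand activin, was at 48.2 CPM against 5.86 (3.04, 2.41 to 3.73) within clusters and at 83.7 against 3.33 (4.65) by depth. Ptgs2, the cyclooxygenase that makes prostaglandins, was at 2.80 (2.23 to 3.43), with 195 UMIs against 28, and at 3.87 by depth. Fosl2, another AP-1 factor, was at 2.55 (2.04 to 3.11). Cdkn1a, a cell cycle inhibitor, followed at 1.87 (2.72 by depth), and Acvr1c, a receptor of the activin family, was at 1.08 (2.68 by depth).

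Homer1, which encodes a scaffold of the postsynaptic density, was found in 98.0% of triple-positive and 86.7% of triple-zero cells and was at 0.98 (0.86 to 1.09). Nrn1, a membrane-anchored growth factor, was at 1.20, and Rgs2, a regulator of G protein signaling, at 0.40 within clusters and 1.29 by depth. Bhlhe40 (−0.04, −0.27 to 0.18) and Syt4, a protein of secretory vesicles (0.03, −0.05 to 0.11), had intervals that held 0 within clusters but not by depth (0.69 and 0.39). Summed over the list, the UMIs per cell were 12 to 310 with a median of 77.5 in triple-positive neurons and 1 to 145 with a median of 45 in triple-zero neurons, and the triple-positive cell was higher in 228 of 256 pairs.

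Several precursors of secreted peptides, and an enzyme that processes them, were higher in triple-positive neurons. Vgf, a granin that is cut into neuropeptides, was found in 255 of 256 triple-positive cells (99.6%) and in 61.7% of triple-zero cells. Its median was 8 UMIs (0 to 74) against 1 (0 to 22), and it was higher in the triple-positive cell in 224 pairs (log2 ratio 2.14, 2.01 to 2.27). Scg2, the precursor of secretoneurin, had a median of 7 UMIs (0 to 152) against 2 (0 to 69) and a ratio of 1.82. Pcsk1, a protease that cleaves such precursors, was at 1.34. Of the 18 peptide and granin genes, 13 were tested and 6 were at least 2-fold higher, against 1.02% of all genes. Of these 6, Vgf, Scg2 and Nrn1 are also in the delayed list and were counted there, so 3 of the 6 repeat that list. Intervals lay above 0 for 10 of the 13 genes and below 0 for 3, against 12.8% and 20% of all genes.

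Penk, the precursor of enkephalins, was at 2.70 (2.20 to 3.23) within clusters and 4.61 by depth, and Adcyap1, the precursor of the peptide PACAP, at 1.93 and 3.31. Both are marker genes of clusters in which triple-positive cells were frequent, since Penk was among the leading genes of cluster 1 and Adcyap1 of cluster 0. Pdyn, the precursor of dynorphins, was at 1.18 (2.39 by depth). Chga (−0.32, −0.45 to −0.19) and Npy (−0.47, −0.81 to −0.13) were lower within clusters, whereas Npy was at 0.27 (0.00 to 0.55) by depth. Crh, the stress peptide, had 21 UMIs against 0, a log2 ratio of 2.81 with the 0 set at 3 UMIs over the group, which is no lower bound. By depth, a Crh UMI was found in 2.37% of triple-positive and 0.474% of triple-zero cells. The granin Chgb was higher by less (0.65, and 0.39 by depth). Scg3 was at 0.48 (0.40 to 0.57) within clusters and in the opposite direction by depth, at −0.43 (−0.50 to −0.36).

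Receptors of neurotrophins and glutamate differed by less than 2-fold within clusters where they were tested, in both directions, apart from Sorcs3. Ntrk2, the receptor of BDNF, was at 0.48 (0.42 to 0.55) and Ntrk3, the receptor of neurotrophin 3, at 0.39 (1.22 by depth). Ngfr, the low-affinity receptor of neurotrophins, was under the minimum, with 0 UMIs against 7 within clusters and 1 against 28 by depth. Sorcs3, a sorting receptor of the Vps10 family, was at 1.90 (1.65 to 2.15) and at 3.02 by depth, with a UMI in 66.4% against 34.0% of cells. It was among the leading genes of cluster 1, where triple-positive cells were frequent. Inside that cluster it was at 0.90 (0.48 to 1.33), and in the L2/3 IT-like cluster at 2.54. Of the 14 neurotrophin genes, 8 were tested and Sorcs3 was the 1 at least 2-fold higher, where 1.02% of all genes were. Nptx1, the sister pentraxin of Nptx2, was lower in triple-positive neurons, at −0.46 (−0.54 to −0.38) under both matchings, and its median was 7 UMIs against 10. Nptxr, the pentraxin receptor, was at 0.60 within clusters and 1.39 by depth. Among AMPA receptor subunits, Gria4 (0.69), Gria3 (0.37) and Gria2 (0.15) were higher and Gria1 (−0.21, −0.31 to −0.12) lower, and the interval of Gria1 by depth held 0 (−0.03 to 0.12). Of the 12 pentraxin and AMPA receptor genes, 0 of 12 tested were at least 2-fold higher or lower within clusters, and so were 0 of the 11 NMDA and metabotropic glutamate receptor genes. With 1.02% of all genes higher and 1.44% lower, counts of 0 in lists of this size do not set them apart. Intervals lay above 0 for 6 genes of the first list and 7 of the second, and below 0 for 3 of each. Of all genes, 12.8% lay above and 20% below. The second list had Grm2 at 0.90 (1.45 by depth), Grin2a at 0.69 and Grm5 at −0.48.

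Some genes of the feedback on the ERK kinase pathway, which carries signals from BDNF and calcium to the nucleus, were higher within clusters. Of 14 genes, 11 were tested and 4 were at least 2-fold higher, against 1.02% of all genes, with 8 intervals above 0 and 1 below 0, against 12.8% and 20%, and a median of 0.96. Dusp1 was also counted in the rapid list. By depth the median was 0.34, with 3 genes at least 2-fold higher and 1 lower, against 3.42% and 5.17%. The 4 genes were Dusp6 (1.62, 1.37 to 1.87) and Dusp5 (1.56), both phosphatases of ERK, Dusp1 and Spry2 (1.10, and 0.30 by depth). Dusp14 was at 1.0 (1.73 by depth), just below 2-fold. Dusp5 was at −0.17 by depth, and Etv1, which is also a marker of layer 5, was at −2.91 by depth and −0.63 within clusters. The corepressor Nab2, which binds Egr proteins, was at 0.52 (0.25 to 0.79), and Nab1 at 0.05. Of the transcription factors upstream of the program, 0 of the 13 tested passed 2-fold, which is near the shares of all genes (1.02% and 1.44%). Of their intervals, 1 lay above 0 and 3 below, and Creb1 was at 0.01, Mef2c at −0.03 and the median at −0.03. Elk1 was at −0.80 (−1.13 to −0.46), and at −0.08 by depth.

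Potassium channel genes were mostly higher by less than 2-fold. Of 24, all were tested, 18 had an interval above 0 and 1 below, against 12.8% and 20% of the 8315 genes, and 1 passed 2-fold, with a median of 0.31. By depth the median was 0.46, with 4 at least 2-fold higher and 1 lower, against 3.42% and 5.17% of all genes. The gene that passed within clusters was Kcnv1, a silent subunit that alters the gating of other channels, at 1.40 (1.24 to 1.57), with a median of 4 UMIs against 1. Heat shock and stress genes had a median of 0.08, with Hspa8 at 0.08, Hsp90aa1 at 0.01 and Dnajb1 at −0.07. Gadd45a, a stress-induced gene, was the 1 of 15 tested that passed 2-fold, at 1.42 (0.75 by depth), where 1.02% of all genes passed, and Hspb1 was at −1.44 with 21 UMIs against 57. By depth, where 3.42% of all genes passed, the 1 of 18 was Hspa1b, an inducible heat shock gene, at 1.37 (0.82 to 1.94, 100 UMIs against 39), and within clusters it was under the minimum at 0.32 (−0.43 to 1.07). The mitochondrial share of UMIs moved with the groups, with medians of 6.94% in triple-positive and 6.08% in triple-zero cells within clusters and 6.79% and 5.09% by depth. Its part in the results was not tested.

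The 20 highest genes within clusters included several outside the lists. Trib1, a pseudokinase that binds MAP kinase kinases, was at 2.52 (2.09 to 2.96), Syt12 at 2.10, Ccnd1, encoding cyclin D1, at 1.98 and Maml3, a coactivator of Notch signaling, at 1.99. H2-T23 (2.25), Krt80 (2.10), Serpinb8 (2.09) and Wnt10a (2.0) completed this range. By depth, the 20 highest also held Fstl4 (3.21), Gpr83 (3.21), Coch (3.19), Scn7a (3.11), 1110002E22Rik (3.03), S100a6 (2.95), Mylk3 (2.86), Trpc6 (2.85) and Gcnt4 (2.82), of which Coch and Scn7a were leading genes of cluster 0. The lowest genes within clusters were Nxph4 (−6.65, −11.97 to −4.14, 1 UMI against 101) and Ctgf (−2.23), both markers of L6b neurons, with Trhr (−2.59), Peg10 (−2.43), Clic5 (−2.41), Vim (−2.0), Col23a1 (−1.98) and Rab3b (−1.96). Nxph4 was found in 17 of 256 triple-zero cells and up to 39 UMIs in a cell, so a difference of class remained within clusters. The lowest depth-matched genes further held Mafa (−6.73, 1 UMI against 107; −12.05 to −4.22), Trh (−6.69, 2 UMIs; −9.75 to −4.82), Rcan3 (−5.12), Kcnip1 (−5.10) and Cacng5 (−4.88). Igkc (−6.12) and Ighg2c (−5.02), immunoglobulin transcripts, rested on few cells, since 3 of the triple-zero cells held 3055 of the 3090 Igkc UMIs. Both were also among the 10 lowest genes within clusters.

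Glial and vascular markers were lower in triple-positive cells by depth. There, the summed level of 4 oligodendrocyte markers was 330 CPM in triple-positive and 1519 in triple-zero cells, of 5 microglial markers 65.9 and 238, of 4 astrocyte markers 152 and 351, and of 4 vascular markers 61.1 and 231. Within clusters, the oligodendrocyte markers were at 808 and 1752 CPM, the astrocyte markers at 215 and 310, the vascular markers at 107 and 280 and the microglial markers at 78.4 and 88.6, the last with an interval of the log2 ratio that held 0. Hemoglobin transcripts were at 158 and 154 CPM by depth and 201 and 234 within clusters. When the 43 pairs from glial and vascular clusters were left out, 213 pairs remained. Of 7641 genes, 82 (1.07%) were at least 2-fold higher and 70 (0.916%) lower. The medians were 1.89 for the rapid list, over 12 tested genes, and 0.94 for the delayed list, over 23. In these pairs the oligodendrocyte markers were at 79.1 and 97.8 CPM, while the intervals of the ratio held 0 for the microglial (25.4 and 31.8), astrocyte (71.6 and 76.5) and vascular markers (35 and 28.4). The hemoglobin transcripts were at 31.3 CPM in triple-positive and 280 in triple-zero neurons, a log2 ratio of −3.16 (−3.47 to −2.86), and all 4 were at least 2-fold lower. The part of blood RNA in the results was not tested.

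The summed levels of the rapid and delayed lists were higher inside each of the 4 clusters with at least 25 pairs, although 1 rapid gene had 100 UMIs in the L2/3 IT-like cluster and 5 in cluster 1. Single genes were less certain, since the interval held 0 for Junb in the L2/3 IT-like cluster (−0.63 to 1.63) and for Penk in the L6 CT-like cluster (−0.47 to 3.45). Summed over the rapid primary list, the level was 2589 CPM in triple-positive and 1006 in triple-zero cells of cluster 0, 1803 and 653 in cluster 1, 1795 and 662 in the L2/3 IT-like cluster, and 2821 and 777 in the L6 CT-like cluster. The summed log2 ratio was 1.86 (1.76 to 1.96) in the L6 CT-like cluster and 1.36 (1.23 to 1.5) in cluster 0, and these intervals did not overlap. For the delayed list, the ratio was 1.07 (0.97 to 1.18) in the L2/3 IT-like cluster and 0.72 (0.64 to 0.79) in cluster 0. These clusters came from 1 library and share its animals, so they are no replicates.

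Of 2875 genes with at least 50 UMIs in each of these 4 clusters, 22 (0.765%) were at least 1.5-fold higher in every cluster and 6 (0.209%) at least 1.5-fold lower in every cluster. This criterion was chosen after values had been seen. Among the 22 were Nr4a1 (2.17 to 4.07 over the 4 clusters), Egr1 (1.71 to 3.03), Vgf (1.59 to 3.43), Scg2 (1.1 to 3.08), Dusp6 (1.21 to 2.91), Sorcs3 (0.90 to 2.54), Ier5, Homer1 and Nrn1. Also among them were the potassium channel genes Kcnv1 (0.59 to 1.85) and Kcnc2 (0.75 to 1.90, with an interval that held 0 in the L2/3 IT-like cluster). Atp2b2, a calcium pump of the plasma membrane, was at 0.64 to 0.95, Camkk2, a calcium-dependent kinase, at 0.73 to 1.06, and Rph3a, a protein of synaptic vesicles, at 0.83 to 1.88. Nrn1 was higher by more in the L6 CT-like cluster (2.33, 1.96 to 2.71) than in cluster 0 (0.63, 0.44 to 0.81), whereas Scg2 showed the opposite order (1.1 and 1.91).

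The 6 lower genes were Mapk3, Hrk, Efnb3, Cpne6, Trp53i11 and Zhx1. Mapk3, which encodes the kinase ERK1, was at −1.64 (−2.32 to −1.0) in cluster 0, −1.69 in cluster 1, −1.32 in the L2/3 IT-like cluster and −1.77 (−2.25 to −1.31) in the L6 CT-like cluster. Over all 256 pairs it had a median of 0 UMIs in triple-positive and 2 in triple-zero neurons, with a UMI in 42.6% against 76.6%. Hrk, a protein of the BCL-2 family that promotes cell death, was between −1.28 and −1.65, with a UMI in 46.9% against 75% of cells. Efnb3, a ligand of Eph receptors, was between −0.61 and −2.10. The Nos1 gene, encoding neuronal nitric oxide synthase, was under the minimum of 50 UMIs in the L6 CT-like cluster and was singled out after its values were seen: it was at −2.95 (−3.74 to −2.23) in cluster 1, −2.48 in the L2/3 IT-like cluster, −1.05 in cluster 0 and −0.99 in the L6 CT-like cluster.

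**Figure D4:**
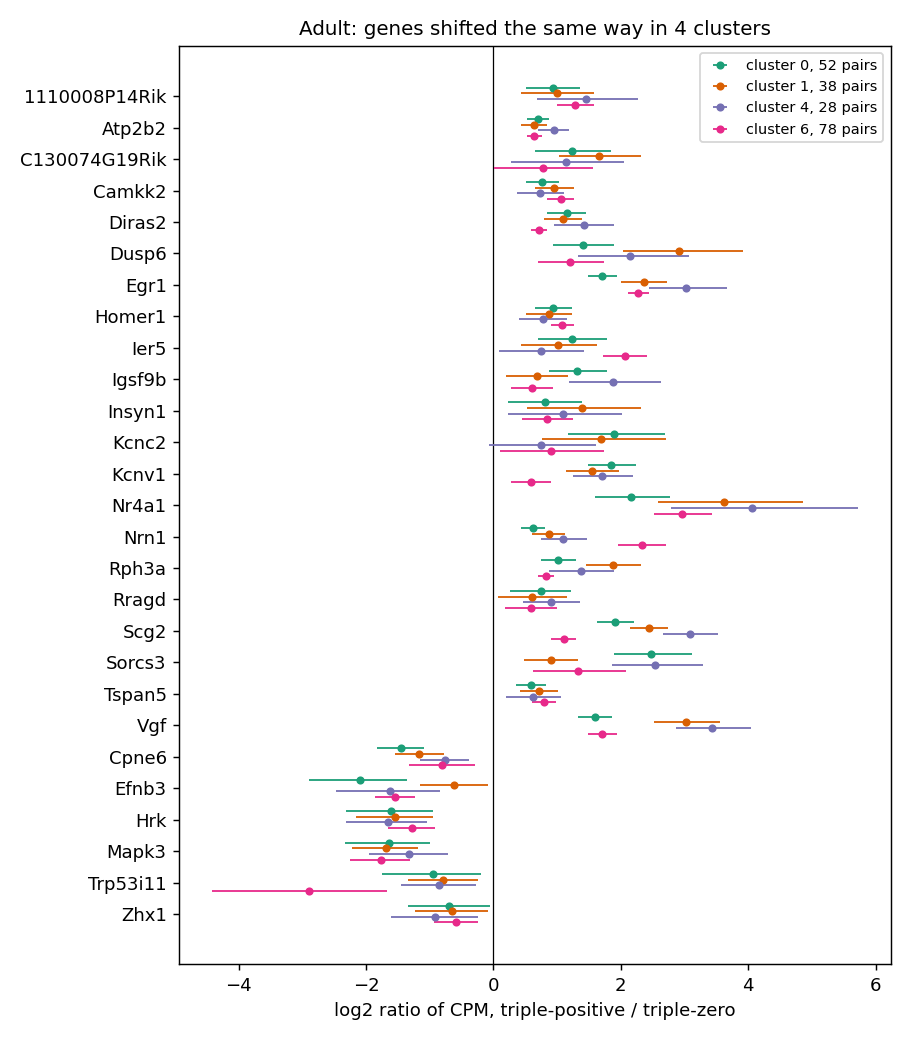
Log2 ratio of CPM (triple-positive over triple-zero neurons) of all but 1 of the 22 genes at least 1.5-fold higher and of the 6 at least 1.5-fold lower in each of clusters 0, 1, 4 and 6, with exact 95% counting intervals. Nr4a1, Vgf and Egr1 lie to the right of 0 in every cluster, from 1.59 to 4.07, and Mapk3 and Hrk to the left, from −1.28 to −1.77.

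The levels were graded by how many of the 3 genes a cell held. Which gene was held also differed between the steps. Over all adult excitatory neurons, 1591 of the 1952 cells with 1 gene held Egr3 alone. Of the 1968 cells with 2 genes, 62 lacked Egr3. In clusters 0, 1 and 4, cells of 12000 to 20000 UMIs were divided into 48 with 0 of the genes, 337 with 1, 372 with 2 and 285 with 3, at median depths of 14718, 15744, 16488 and 16666 UMIs. The rapid primary list summed to 772 (707 to 842), 888 (862 to 915), 1438 (1406 to 1469) and 2119 (2076 to 2162) CPM in this order. Fos was at 7.4, 19.5, 41.0 and 97.7 CPM and Egr1 at 194, 298, 589 and 875 CPM. Some genes were higher mainly in the cells with all 3. Inhba was at 6.0, 8.9, 21 and 109 CPM, Penk at 16.4, 14.2, 25.5 and 178, Scg2 at 196, 236, 388 and 1020, and Sorcs3 at 92.3, 78.5, 123 and 279. In the other direction, Mapk3 was at 231, 186, 111 and 71.5 CPM, Hrk at 216, 155, 91.7 and 60.7, and Nos1 at 251, 167, 109 and 49.6. Slc17a7 (2308, 2094, 2234 and 2534 CPM) and Hspa8 (1192, 1256, 1263 and 1292) moved by less than 1.5-fold over the same cells. The markers of L2/3 IT neurons summed to 604, 779, 708 and 605 CPM and had no such order.

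The mix of clusters changed along these steps, with cluster 1 giving 35.4%, 22.0%, 18% and 26.7% of the cells, so the levels were also read inside each cluster. Cells with 0 of the genes were then few, 18 in cluster 0, 17 in cluster 1 and 13 in the L2/3 IT-like cluster. From cells with 1 of the genes to those with 3, Scg2 went from 259 to 686 CPM in cluster 0, from 280 to 1479 in cluster 1 and from 196 to 1083 in the L2/3 IT-like cluster. Sorcs3 went from 61.9 to 214, from 134 to 368 and from 64.2 to 290 CPM in the same order of clusters. Penk was at 2.3 and 15.1 CPM in cluster 0, at 40.2 and 332 in cluster 1 and at 10.8 and 267 in the L2/3 IT-like cluster. Mapk3 was lower at 3 genes than at 1 in each, at 97.8 and 47.0, 207 and 61.8, and 247 and 113 CPM.

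**Figure D5:**
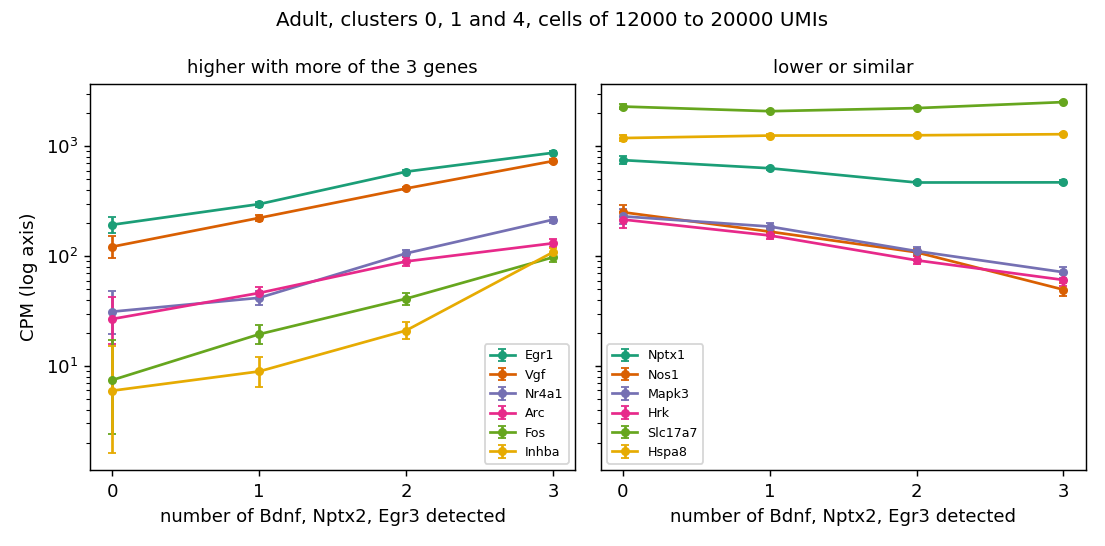
CPM on a log axis of 12 genes in cells of clusters 0, 1 and 4 with 12000 to 20000 UMIs, against the number of the 3 genes Bdnf, Nptx2 and Egr3 that were detected in the cell (48, 337, 372 and 285 cells), with exact Poisson 95% intervals. Fos climbs from 7.4 to 97.7 CPM and Inhba from 6.0 to 109 CPM, Mapk3 declines from 231 to 71.5 CPM, and Slc17a7 and Hspa8 stay within 1.5-fold.

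By the same rule, triple-positive excitatory neurons were rare early. The P1 library held 3 among 8804 (0.0341%) and the P4 library 32 among 13849 (0.231%), while P10 held 843 of 9128 (9.24%, 8.65 to 9.85) and adult 23.0% (22.0 to 24.0). Depth did not follow this order throughout, since excitatory neurons at P1 had the highest median, 27902 UMIs, and adult neurons had 18266. The P4 library had the lowest median, 13917 UMIs, and the P10 library had 22306.5. From P4 to P10, depth therefore rose together with the share. The ages were not compared at equal depth, so the part of depth in these shares was not tested. Egr3 alone was found in 8.71% (P1), 33.7% (P4), 71.1% (P10) and 73.3% (adult) of excitatory neurons, and Nptx2 in 2.01%, 4.95%, 24.3% and 36.7%. Each age is 1 library, and the P1 library was made with another version of the pipeline, with intronic reads kept per its header, so age and library cannot be told apart.

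At P10, 441 depth-matched pairs gave 10299 genes with 100 UMIs, of which 450 (4.37%) were at least 2-fold higher in triple-positive neurons. Of the rapid primary list, 17 genes were tested and 14 passed 2-fold, with a median of 1.43. Within clusters, 144 pairs and 7883 genes remained, and 44 genes (0.558%) were at least 2-fold higher and 57 (0.723%) lower. The median of the rapid list was 1.70 over 10 tested genes, so the 2 medians cover different sets of genes. Markers of other cells moved with these P10 pairs. The 4 oligodendrocyte markers summed to 8.89 CPM in triple-positive and 918 in triple-zero neurons, and the 4 hemoglobin transcripts to 115 and 272, while markers of oligodendrocyte precursors were at 121 and 86.7 and vascular markers at 55.2 and 26.7. Of the markers of neuron classes, those of L5 NP neurons summed to 276 and 502 CPM and those of L6b neurons to 93.3 and 170. Their part in the P10 values was not tested. Fos was at 2.34 (1.93 to 2.77), Egr1 at 2.13, Egr4 at 1.95, Nr4a1 at 1.58 and Fosl2 at 2.26 within P10 clusters. By depth they were higher, at 3.02, 2.91, 3.07, 2.04 and 3.93 in this order. Of the 85 genes at least 2-fold higher within adult clusters, 49 were tested within P10 clusters, 46 of these were above 0 (93.9%) and 16 passed 2-fold. Over all 7466 genes tested at both ages, 46.6% were above 0 and 41 passed 2-fold. Of the 120 lower genes, 76 were tested at P10 and 10 were above 0 (13.2%). Among the peptides, Penk was at −0.15 (−0.83 to 0.53, 37 UMIs against 41) within P10 clusters and 2.70 within adult clusters, and by depth at 1.86 (1.45 to 2.29) and 4.61. Vgf was at 0.95 and 2.14 within clusters. Of the genes singled out as lower in adult clusters, Hrk was at 0.20 (−0.09 to 0.50) within P10 clusters and 0.99 (0.79 to 1.18) by depth, against −1.28 and −1.22 in adult. Mapk3 was at −0.28 (−0.44 to −0.12) and −0.13 at P10, against −1.51 and −1.14, and Nos1 at −0.48 (−0.91 to −0.05) and −0.14 (−0.40 to 0.12), against −1.81 and −0.77. The difference between ages was not tested, since each has 1 library.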

How the data were processed

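Single-cell RNA was measured in 1 PFC library per age. The authors deposited raw UMI counts per gene and cell barcode, made with the BD Rhapsody WTA pipeline (version 1.11 for P1 and 1.8 for the others, per the file headers) on mm10 with GENCODE vM19. All values were checked to be whole numbers. The adult file holds 15961 barcodes and 200198548 UMIs. The rule was applied in Python 3.11.15 (scipy 1.17.1), with its thresholds for Neurod and Gad genes read per 10000 UMIs of the cell. Clusters were made in scanpy 1.11.5 (2000 variable genes, 30 components, 20 neighbours, Leiden at resolution 0.5), leaving activity lists and the 3 genes out. Scrublet-marked cells were kept. Pairs were the nearest unused cells within 10% of UMIs. UMIs were summed per group, and CPM excluded mitochondrial and ribosomal protein genes. Ratios have exact conditional binomial intervals, CPM exact Poisson and shares Clopper-Pearson intervals. A sum of 0 UMIs was set at 3. Matching and ratios were tested on simulated data. Genes of the lists were named, with the 20 highest and 10 lowest log2 ratios among genes with 100 UMIs found in at least 5% of cells of 1 group. The members and all lists were chosen with earlier results of these data known. Clustering and naming followed the values of 1 library. Some genes are not reported here.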

Additional observations from a re-analysis of the deposited data

Results flagged for a closer look

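With 1 library per age, 4 genes of the lists had counting intervals on opposite sides of 0 within adult and P10 clusters. Of all 7466 genes tested at both ages, 883 had an interval above 0 and 875 below 0 within P10 clusters. The share of all genes with intervals on opposite sides is not given here, so the count of 4 does not set the lists apart. The difference between ages was not tested. Npy was at −0.47 in adult and 1.73 at P10 (log2 ratio, triple-positive over triple-zero neurons), Gria1 at −0.21 and 0.46, Kcnk2, a background potassium channel, at 0.54 and −0.34, and Hsp90ab1, a chaperone, at −0.14 and 0.046. With pairs matched on UMIs alone, these 4 genes did not have intervals on opposite sides of 0. Npy was at 0.27 in adult and 3.73 at P10, Kcnk2 at −1.05 and −1.65, Hsp90ab1 at −0.22 and −0.027, and Gria1 at 0.042, with an interval that held 0, and 0.97. Other genes of the lists did, such as Sst at −0.39 and 0.43 and Grm3 at 0.47 and −0.67.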

How the results depend on the processing

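Of 60 recomputed values, 42 stayed within 1.5-fold (counts) or within the counting bounds (list medians). Of the list medians, 0 turned in direction, and counts cannot turn. The median of the rapid primary list was between 1.26 and 2.18 and that of the delayed list between 0.94 and 1.23. With at least 2 UMIs of each gene, members numbered 992 in place of 1600 and the rapid median was 2.18 (at P10 2.05 in place of 1.43). Defined on cells thinned to 5000 UMIs, members numbered 523, genes at least 2-fold higher 167 in place of 325 and lower 846 in place of 492, and the rapid median was 1.26. Pairs within clusters gave 85 higher and 120 lower genes. Pairs within neuron-led clusters, chosen after seeing the data, gave 82 and 70, with a delayed median of 0.94, and 83 and 73 without Scrublet-marked cells. Lower genes numbered 295 with Slc17a7 required and few glial markers, and 1910 without a depth match. A minimum of 20 UMIs gave 556 higher and 1243 lower genes. The causes were not tested. No paired analysis was possible because each age has 1 library. Genes under 100 UMIs could not be ranked at this depth.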
